A study of Homo sapiens with 12 samples.

Results

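The genes described here are RNF26 and 7 genes whose proteins work with it, or against it, in the positioning of endosomes and other vesicles: the ubiquitin-conjugating enzyme UBE2J1, the ubiquitin adaptors SQSTM1, TAX1BP1, EPS15 and TOLLIP, the deubiquitinase USP15, and the intermediate filament protein vimentin (VIM). They were chosen by name, and were found by matching Ensembl identifiers to symbols, as 8 of the 63036 identifiers in a table of mRNA levels from 12 libraries. The libraries came from 2 established lines of human colorectal carcinoma cells, HCT116 and HCT15, each as control cells (labelled con) and as cells made to overexpress RNF26 (labelled ov_RNF26), giving 4 groups of 3 libraries. The title of the series links RNF26 to the growth and spread of colorectal cancer cells through the Wnt pathway, and the design asks what RNF26 alters in each line. The labels name no vector, promoter, selection or clone, do not say what the control cells carried, and do not tell whether the replicates of a group were grown separately. The p-values therefore reflect the spread between libraries, which may be technical.

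RNF26 is a RING-type E3 ubiquitin ligase that spans the membrane of the endoplasmic reticulum (ER) and is concentrated around the nucleus. With its partner UBE2J1, an E2 enzyme anchored in the same membrane, it attaches ubiquitin to SQSTM1, and the ubiquitin then draws in adaptors that sit on vesicles, among them TOLLIP, EPS15 and TAX1BP1, so that the vesicles gather in the perinuclear cloud. USP15 removes the ubiquitin and lets vesicles leave for the cell periphery, and vimentin filaments help to keep RNF26 and the ER around the nucleus. All of this acts on proteins and their place in the cell, whereas the values below are mRNA levels.

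RNF26 is a gene of 1 exon on the plus strand of chromosome 11, at chr11:119334527-119337313 in GRCh38 (ENSG00000173456, GENCODE annotation), with a coding sequence of 433 codons. The part of the transcript that encodes the RING finger, the module that holds the E2 enzyme, is shown because it is the catalytic part of the mRNA that the cells were made to overexpress. It covers codons 380 to 421, at chr11:119336260-119336385 on the plus strand, and the capitals mark the 8 cysteine and histidine codons whose residues bind zinc.

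RNF26 RING-coding segment: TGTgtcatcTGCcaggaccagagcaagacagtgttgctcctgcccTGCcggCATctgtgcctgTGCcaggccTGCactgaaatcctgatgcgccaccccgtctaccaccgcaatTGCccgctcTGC

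The native gene starts downstream of the following 250 bases (RefSeq, GRCh38.p14, plus strand, chr11:119334277-119334526), shown because RNF26 mRNA of control cells, which differed between the lines, begins beside them. Capitals mark the motif CCAAT, or ATTGG where it lies on the other strand. It occurred 3 times with no overlap, and 32.0% of 35116 promoter windows of this length held it at least once on either strand. The motif GGGCGG, which 42.6% of the windows held on either strand, was found 0 times.

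RNF26 promoter: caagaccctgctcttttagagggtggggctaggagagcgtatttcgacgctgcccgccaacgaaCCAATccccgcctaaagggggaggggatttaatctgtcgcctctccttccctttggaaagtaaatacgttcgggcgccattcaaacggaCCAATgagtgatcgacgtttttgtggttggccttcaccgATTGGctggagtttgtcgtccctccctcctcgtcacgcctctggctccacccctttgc

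Levels are given as TPM, transcripts per 1000000, the values the authors deposited. TPM divides out sequencing depth and is scaled by transcript length, so levels can be set beside each other between genes, but the depth behind a value is unknown. Between 13582 and 14135 genes reached a TPM of 1 or more in a library. The cultures held epithelial mRNA throughout: 8 markers of colorectal epithelium summed to between 2724 and 5599 TPM in every library, although CDX1 was at 0 in all but 1 group and the microvillus gene VIL1 was under 1 TPM in HCT116. Markers of fibroblasts summed to at most 2.77 TPM and those of endothelium to at most 0.27, with DCN and LUM at 0 in all libraries. The erythroid markers HBB and HBA1 summed to at most 5.18 TPM, in an HCT116 control. Leukocyte markers reached 7.39 TPM in HCT15, where nearly all of it was CD14. The control library 3 of HCT15 stood apart in makeup: mitochondrial transcripts took 25.9% of its TPM against 16.4 and 17.7% in the other HCT15 controls, and ribosomal protein genes took 17.5% against 21.8 and 24.3%. In the HCT15 RNF26 libraries ribosomal protein genes took 26.3 to 27.5%, more than in any HCT15 control, whereas the 6 HCT116 libraries lay between 21.4 and 22.1%. In bulk RNA, fewer cells of a kind and less RNA per cell cannot be told apart.

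RNF26 mRNA was higher in the RNF26 libraries of both lines, and far more so in HCT116. In HCT116 the level was 15.6, 18.4 and 16.5 TPM in the controls and 299, 334 and 255 TPM in the RNF26 libraries, 17.6 times higher by the group means (16.8 ± 1.44 and 295.8 ± 39.4, SD, n = 3). In HCT15 it was 26.7, 27.8 and 26.4 TPM in the controls and 53.5, 54.6 and 54.4 TPM in the RNF26 libraries, 2.01 times higher (27.0 ± 0.762 and 54.2 ± 0.562). Every RNF26 library lay above every control of its line, and TPM does not separate an introduced copy from the native gene.

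Tested with limma on log2(TPM + 1), a scale on which the change of low genes is understated, RNF26 rose by 4.05 in HCT116 (SE 0.0915, 95% interval 3.85 to 4.25, adjusted p = 1.21e-09) and by 0.98 in HCT15 (SE 0.0915, interval 0.78 to 1.18, adjusted p = 4.97e-05). P-values were adjusted by the Benjamini-Hochberg method over 15584 genes, and genes under 0.05 were called. The rise was smaller in HCT15 by 3.07 (SE 0.129, interval of the difference, HCT15 minus HCT116, -3.36 to -2.79, adjusted p = 1.14e-06). The HCT15 RNF26 libraries held more RNF26 mRNA than any control library, and less than any HCT116 RNF26 library.

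**Figure D1:**
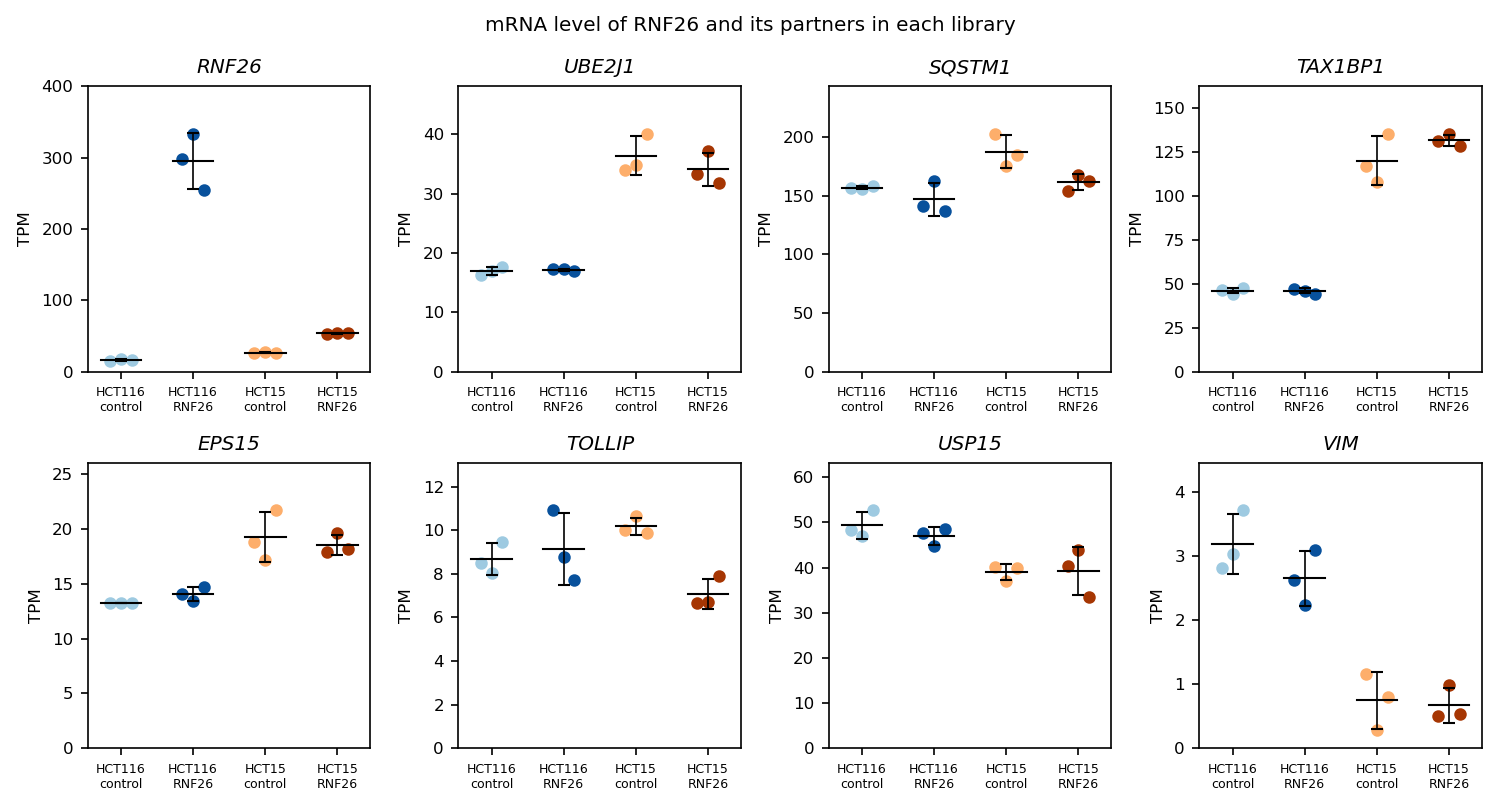
Level of each of the 8 genes in every library, in TPM on a linear axis starting at 0; points are libraries, horizontal bars are group means and error bars are SD (n = 3). RNF26 reaches 255 to 334 TPM in the RNF26 libraries of HCT116 and 53.5 to 54.6 TPM in those of HCT15, UBE2J1 and TAX1BP1 separate the lines rather than the arms, and TOLLIP is lower in the RNF26 libraries of HCT15.

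In HCT116 none of the 7 partners was called beside this rise in RNF26. RNF26 was the 1 gene called among the 8, and also the 1 gene called in the whole table (0.00642% of the genes tested; 4.22% had an unadjusted p under 0.05, and of the 8 genes RNF26 alone did). The adjusted p was 1.0 for each partner. Libraries did not overlap between the arms for RNF26 and EPS15, both higher, against 12.8% of all genes without overlap, 7.25% higher and 5.56% lower. A missed threshold does not show equality, and the intervals below give the size of change that each comparison allows.

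In HCT15 RNF26 rose and 2 adaptors, TOLLIP and SQSTM1, fell as deposited, while UBE2J1, TAX1BP1, EPS15, USP15 and VIM were not called. These 3 calls of 8 stand beside 36.6% of all tested genes called in this line, 5.39% higher and 31.2% lower. With median-ratio scaling those shares were 14.4 and 16.7%. The call of RNF26 follows from the design and says nothing of its partners. The 2 calls among the partners, both lower, are a share near the 31.2% of all genes called lower. Libraries did not overlap for the same 3 genes, against 43.1% of all genes, 7.23% higher and 35.9% lower. The median log2 difference of the 8 genes was -0.04, beside -0.17 for all tested genes. Since the median of all genes lay below 0, the direction of small differences in HCT15 depended on the scaling: with median-ratio scaling or quantile normalization, which bring that median to about 0, 2 genes were called higher (RNF26 and TAX1BP1) and 0 lower.

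UBE2J1 encodes the E2 enzyme that carries ubiquitin to RNF26 and is known also from ER-associated degradation. The gene lies on the minus strand at chr6:89326625-89352848 (ENSG00000198833). In HCT116 its level was 16.3, 16.9 and 17.7 TPM in the controls and 17.3, 17.3 and 16.9 TPM in the RNF26 libraries, with the 2 sets overlapping (log2 difference 0.02, interval -0.16 to 0.19). The HCT15 levels were 34.0, 34.8 and 40.1 TPM in the controls and 33.2, 37.1 and 31.8 TPM in the RNF26 libraries, again overlapping (-0.09, interval -0.26 to 0.08, adjusted p = 0.416). What set UBE2J1 apart was the line: the HCT15 controls held 2.14 times the level of the HCT116 controls, with no overlap.

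SQSTM1, also called p62, encodes the adaptor that RNF26 ubiquitinates and that otherwise carries ubiquitinated cargo into autophagosomes. It lies on the plus strand at chr5:179806398-179838078 (ENSG00000161011). In HCT116 the controls held 156.5, 156 and 158.5 TPM and the RNF26 libraries 141, 163 and 137 TPM (log2 difference -0.10, interval -0.27 to 0.07). The controls were tightly grouped and the RNF26 libraries lay on either side of them. In HCT15 the controls held 203, 175 and 185 TPM and the RNF26 libraries 154, 168 and 163 TPM, with every RNF26 library below every control.

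SQSTM1 fell in HCT15 by 0.21 on the log2 scale (SE 0.0757, interval -0.38 to -0.05, adjusted p = 0.0455 by limma). This call was close to the threshold, was lost in 16 of 24 other settings and was also absent in 1 more, median-ratio scaling. Over all 24 the adjusted p ran from 0.0229 to 0.978. With median-ratio scaling the difference was 0.0048, on the other side of 0. It was lost without any single HCT116 control, HCT116 RNF26 replicate 1, HCT15 control replicate 1 or 3, or any single HCT15 RNF26 library (adjusted p 0.0520 to 0.165). The gene overlaps MGAT4B and MRNIP on the other strand, which reached 52.8 and 22.0 TPM in some library, and the sources used here do not give whether the quantification used strand.

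TAX1BP1 encodes a ubiquitin-binding autophagy receptor related to CALCOCO2, and lies on the plus strand at chr7:27739331-27844564 (ENSG00000106052). In HCT116 it was at 46.3, 44.5 and 47.5 TPM in the controls and 47.4, 46.2 and 44.5 TPM in the RNF26 libraries, an overlap with a log2 difference of -0.0017 (interval -0.17 to 0.17). HCT15 held 117, 108 and 136 TPM in the controls and 131, 135 and 129 TPM in the RNF26 libraries. Control replicate 3 lay above all 3 RNF26 libraries, and the other 2 controls lay below them. The log2 difference in HCT15 was 0.14 (interval -0.03 to 0.30, adjusted p = 0.188), and without that control it was 0.23 and called (adjusted p = 0.0135). TAX1BP1 was also called higher with median-ratio scaling (0.36), quantile normalization (0.29) and omission of mitochondrial and ribosomal protein genes (0.26), but was at -0.0025 after correction for GC content and length.

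EPS15 encodes an endocytic adaptor that binds ubiquitin and the clathrin adaptor AP-2. It lies on the minus strand at chr1:51354263-51519328 (ENSG00000085832). In HCT116 its level was 13.25, 13.29 and 13.26 TPM in the controls, the closest agreement within a group among the 8 genes, and 14.06, 13.45 and 14.67 TPM in the RNF26 libraries. All RNF26 libraries lay above all controls, but the difference of 0.08 on the log2 scale was not called (interval -0.11 to 0.26, adjusted p = 1.0). The values of HCT15 were 18.8, 17.2 and 21.7 TPM in the controls and 17.9, 19.6 and 18.1 TPM in the RNF26 libraries, which lay within the range of the controls (-0.04, interval -0.23 to 0.14).

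TOLLIP encodes an adaptor with a lipid-binding C2 domain and a ubiquitin-binding CUE domain, known from endosomal sorting and from the damping of Toll-like receptor signals. It lies on the minus strand at chr11:1274371-1309654 (ENSG00000078902), on the same chromosome as RNF26 but far from it. In HCT116 the controls held 8.50, 8.06 and 9.48 TPM and the RNF26 libraries 10.9, 8.77 and 7.72 TPM, which lay on both sides of the controls (log2 difference 0.06, interval -0.20 to 0.31). In HCT15 the controls held 9.99, 10.6 and 9.88 TPM and the RNF26 libraries 6.64, 6.73 and 7.89 TPM, with no overlap. TOLLIP fell in HCT15 by 0.47 on the log2 scale (SE 0.116, interval -0.72 to -0.21, adjusted p = 0.00884).

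The fall of TOLLIP was called without each library in turn. It was not called with median-ratio scaling (log2 difference -0.27, adjusted p = 0.0850), after quantile normalization (-0.21, adjusted p = 0.170) or after correction for GC content and length (-0.30, adjusted p = 0.0572), and over all 24 settings the adjusted p ran from 0.00418 to 0.170. All 24 differences lay below 0, from -0.54 to -0.21. The difference between the lines in the TOLLIP effect was -0.53 (HCT15 minus HCT116, SE 0.164, interval -0.89 to -0.17, adjusted p = 0.0435). RNF26 and TOLLIP were the 2 of the 8 genes called in that comparison, both with a lower effect in HCT15. RNF26 is the overexpressed gene, so TOLLIP was the 1 partner called. Of all tested genes 20.5% were called, 1.8% higher and 18.7% lower (5.99 and 7.35% with median-ratio scaling). The TOLLIP difference was lost in 16 of 23 other settings, among them the omission of any single library other than replicate 3 of either RNF26 group (adjusted p 0.0533 to 0.0977).

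USP15 encodes the deubiquitinase that opposes RNF26, and lies on the plus strand at chr12:62260338-62417431 (ENSG00000135655). In HCT116 it was at 48.3, 46.9 and 52.7 TPM in the controls and 47.7, 44.7 and 48.5 TPM in the RNF26 libraries (log2 difference -0.07, interval -0.27 to 0.13). HCT15 showed 40.1, 37.0 and 39.9 TPM in the controls and 40.3, 43.8 and 33.5 TPM in the RNF26 libraries. The HCT15 RNF26 libraries held both the highest and the lowest value of that line, and the difference was -0.00085 on the log2 scale (interval -0.20 to 0.20, adjusted p = 1.0).

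VIM encodes vimentin, the intermediate filament protein of mesenchymal cells, and lies on the plus strand at chr10:17228259-17237593 (ENSG00000026025). It was the lowest of the 8 genes in each group. In HCT116 its level was 2.81, 3.03 and 3.71 TPM in the controls and 2.62, 2.24 and 3.09 TPM in the RNF26 libraries, which overlapped (log2 difference -0.20, interval -0.62 to 0.23). In HCT15 it was 1.16, 0.28 and 0.80 TPM in the controls and 0.50, 0.98 and 0.53 TPM in the RNF26 libraries, also overlapping (-0.04, interval -0.47 to 0.38, adjusted p = 0.901). These intervals are the widest of the 8 genes. VIM passed the filter on low values, a TPM of 1 or more in at least 3 libraries, through HCT116, so a lower level in HCT15 was favoured by the filter.

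**Figure D2:**
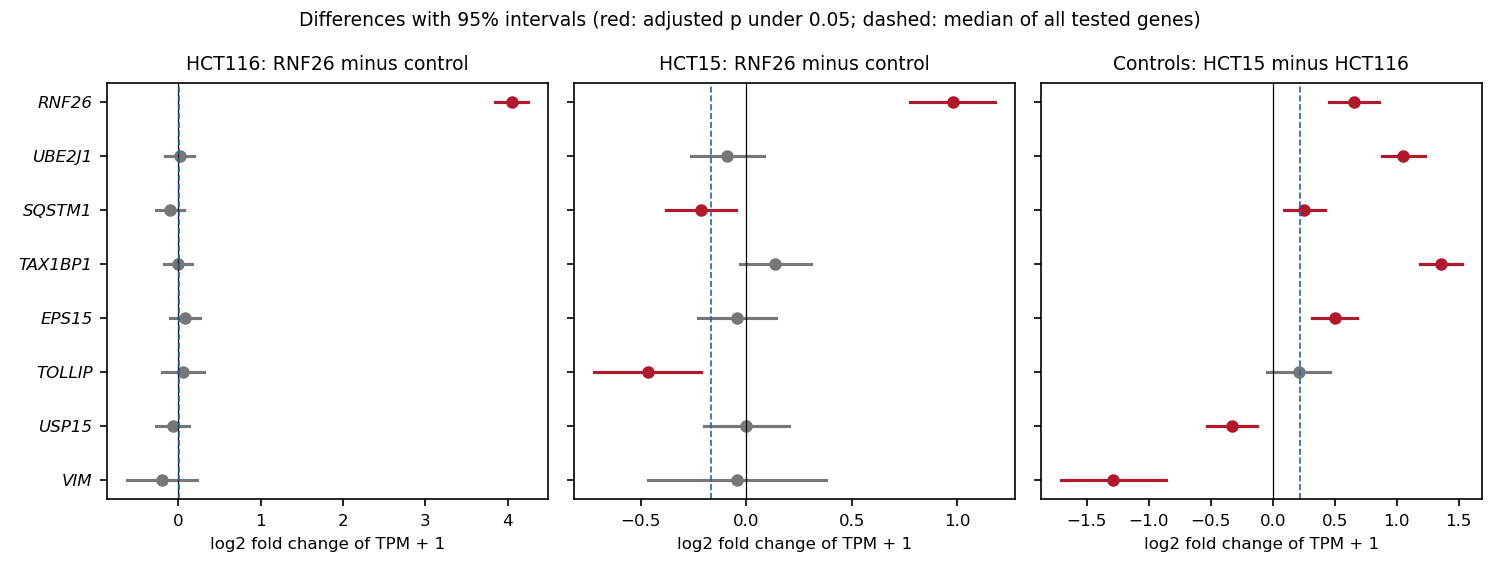
Differences of log2(TPM + 1) for the 8 genes in 3 comparisons, with 95% intervals from limma; red marks an adjusted p under 0.05, the dashed line is the median of all tested genes, and the horizontal scales differ. In HCT116 RNF26 alone is called, at 4.05, in HCT15 SQSTM1 and TOLLIP lie below 0, and between the control lines TAX1BP1 and UBE2J1 are more than 1.0 higher in HCT15 while VIM is 1.29 lower.

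The SQSTM1 and TOLLIP genes share a high GC content with RNF26, VIM lies between, and the other partners are lower. The median GC content of annotated transcripts was 60.9% for SQSTM1, 60.5% for TOLLIP and 59.2% for RNF26, 52.2% for VIM, and 38.5 to 40.4% for UBE2J1, USP15, TAX1BP1 and EPS15. The levels of each library were corrected for GC content and transcript length. In HCT15 SQSTM1 then differed by -0.02 (adjusted p = 0.859), while EPS15 (-0.31, adjusted p = 0.0115), USP15 (-0.27, adjusted p = 0.0147) and UBE2J1 (-0.19, adjusted p = 0.0170) were called lower. With median-ratio scaling the same 3 genes lay above 0, at 0.16, 0.21 and 0.12, and were not called. RNF26 was called higher in HCT15 under each of the 24 settings, with log2 differences from 0.89 to 1.26.

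**Figure D3:**
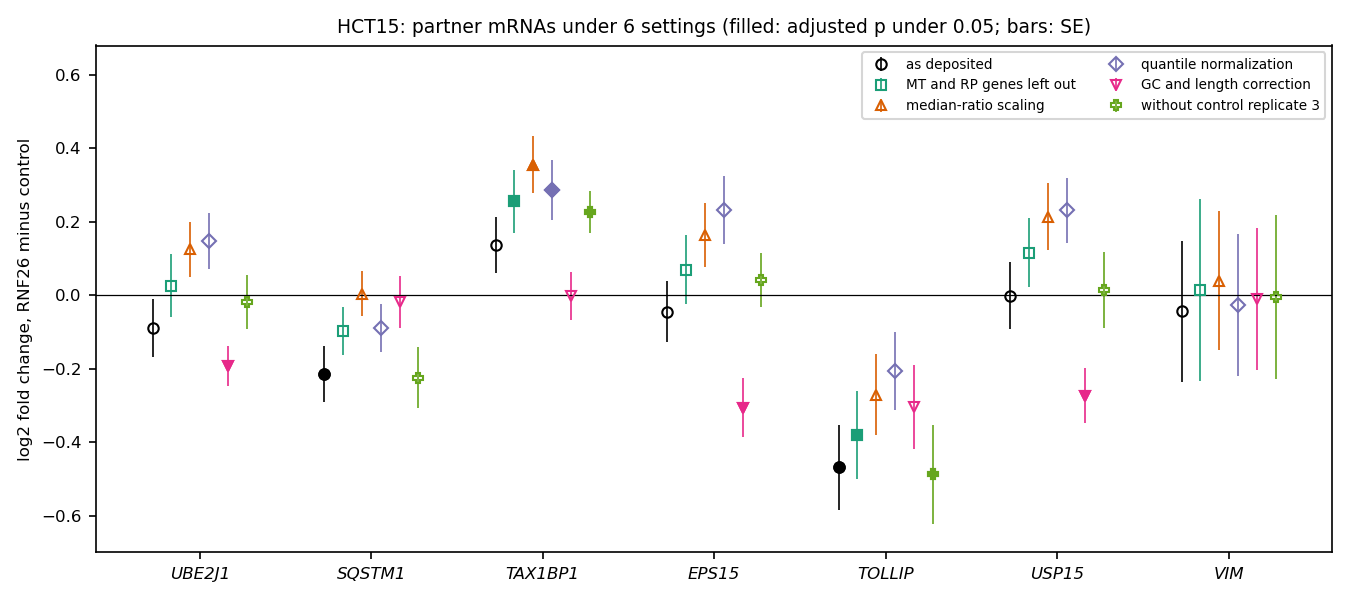
Log2 difference between RNF26 and control libraries of HCT15 for the 7 partners under 6 settings; bars are SE, and filled symbols mark an adjusted p under 0.05. TOLLIP lies below 0 under all 6, TAX1BP1 runs from -0.0025 to 0.36, and UBE2J1, EPS15 and USP15 lie above 0 with median-ratio scaling and are called below 0 with the GC and length correction.

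Between the control cells of the lines, most of the 8 genes differed. In HCT15 controls RNF26, UBE2J1, SQSTM1, TAX1BP1 and EPS15 were higher than in HCT116 controls, USP15 and VIM were lower, and TOLLIP was not called. These 7 calls of 8, 5 higher and 2 lower, stand beside 69.5% of all tested genes called, 43.6% higher and 26.0% lower (37.1 and 32.0% with median-ratio scaling). The lower call of VIM was favoured by the filter on low values, which VIM passed through HCT116. This comparison uses the same control libraries as the comparisons within each line. TAX1BP1 was highest in ratio, at 2.61 times the HCT116 level (46.1 ± 1.53 against 120.2 ± 14.0 TPM, log2 difference 1.36, SE 0.0762, adjusted p = 2.91e-08, higher in 3 of 3 HCT15 libraries). UBE2J1 followed at 1.05 (SE 0.0786, adjusted p = 3.29e-07). RNF26 differed by 0.65 (interval 0.45 to 0.85) and EPS15 by 0.50 (interval 0.32 to 0.68), and both were higher in all HCT15 controls.

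SQSTM1 was 0.25 higher in HCT15 controls (interval 0.09 to 0.42, adjusted p = 0.0106), close to the median of all genes, 0.22, and with median-ratio scaling it was 0.07 and not called (adjusted p = 0.305). EPS15 was not called with quantile normalization (0.20, adjusted p = 0.0809). USP15 was 0.33 lower in HCT15 (log2 difference -0.33, interval -0.53 to -0.13, adjusted p = 0.00725), against the direction of most genes. VIM was lower by 1.29 (log2 difference -1.29, interval -1.71 to -0.86, adjusted p = 0.000100), a direction that the filter favoured. TOLLIP lay above in every HCT15 control, but its difference of 0.21 was not called (interval -0.05 to 0.46, adjusted p = 0.129). Libraries did not overlap for all 8 genes, 6 higher and 2 lower, against 71.9% of all genes, 44.8% higher and 27.1% lower.

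The order of levels shifted with RNF26. In HCT116 controls SQSTM1 was highest, USP15 and TAX1BP1 followed with overlapping ranges, then UBE2J1 and RNF26 with overlapping ranges, then EPS15, TOLLIP and VIM. In the HCT116 RNF26 libraries RNF26 moved to the top, above SQSTM1, and the order of the rest was the same, with USP15 and TAX1BP1 again overlapping. In HCT15 controls the order was SQSTM1, TAX1BP1, USP15 and UBE2J1 (ranges overlapping), RNF26, EPS15, TOLLIP and VIM. In the HCT15 RNF26 libraries RNF26 moved above USP15 and UBE2J1 (ranges overlapping each other) but remained below SQSTM1 and TAX1BP1. Neighbours for which no overlap is named had separate ranges.

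Ratios within a library do not move with its scaling, so the ligase was also set against its E2 enzyme and against the opposing deubiquitinase. They can move with a correction that differs by gene, such as that for GC content and length, which was not run on them. The TPM ratio of RNF26 to UBE2J1 was 0.954, 1.09 and 0.933 in HCT116 controls and 17.3, 19.3 and 15.1 with RNF26. The HCT15 ratios were 0.785, 0.799 and 0.658 in controls and 1.61, 1.47 and 1.71 with RNF26. The 2 mRNAs were thus near parity in HCT116 controls, RNF26 was the lower one in HCT15 controls, and RNF26 exceeded UBE2J1 in all 6 RNF26 libraries. The mean log2 ratio differed between arms by 4.11 in HCT116 and 1.10 in HCT15, and by -0.41 between the HCT15 and HCT116 controls.

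The TPM ratio of RNF26 to USP15 was 0.343 ± 0.0429 in HCT116 controls and 6.33 ± 1.10 with RNF26 (SD, n = 3), a log2 difference of 4.20. In HCT15 it was 0.693 ± 0.0512 in controls and 1.40 ± 0.199 with RNF26, a difference of 1.01. Ligase mRNA passed deubiquitinase mRNA in all 6 RNF26 libraries and in 0 of the 6 control libraries. Control cells of HCT15 held more RNF26 per USP15 than those of HCT116, by 1.02 on the log2 scale. Each of these 6 ratio comparisons separated all libraries of the groups and had a two-sided exact permutation p of 0.1, the smallest that 3 against 3 libraries can give.

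The summed TPM of the 4 adaptors SQSTM1, TAX1BP1, EPS15 and TOLLIP was set against USP15 in the same way. The ratio was 4.57 ± 0.202 in HCT116 controls, 4.61 ± 0.498 with RNF26, 8.64 ± 0.214 in HCT15 controls and 8.23 ± 1.10 with RNF26. The arms overlapped in both lines, with log2 differences of 0.0092 in HCT116 (exact permutation p = 1.0) and -0.08 in HCT15 (exact permutation p = 0.4). HCT15 controls were 0.92 above HCT116 controls with no overlap (exact permutation p = 0.1).

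**Figure D4:**
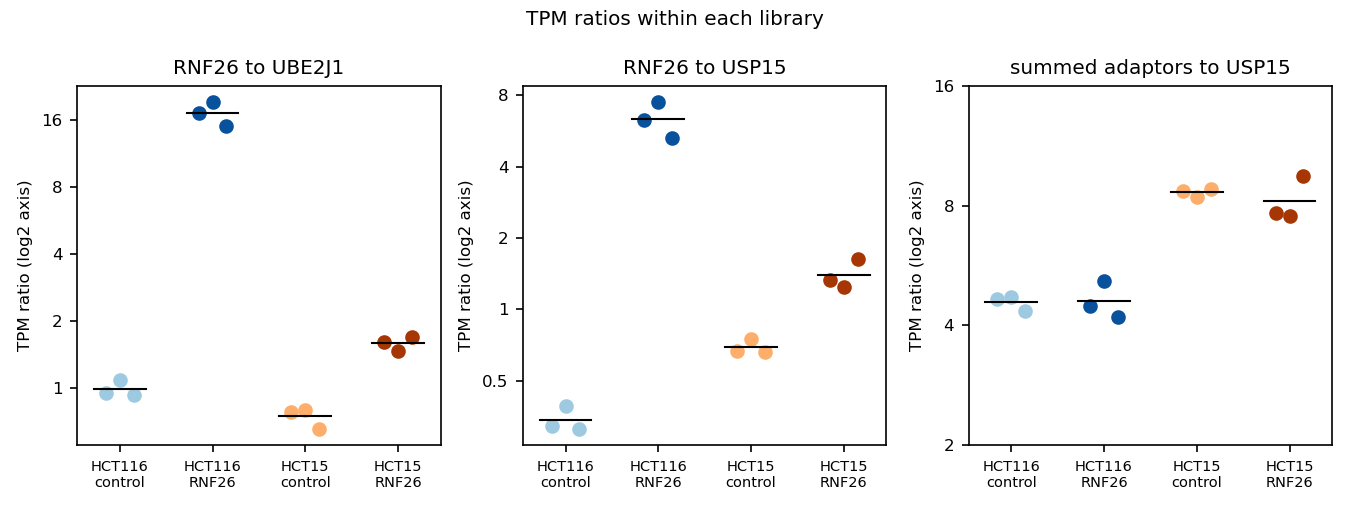
TPM ratios within each library on log2 axes, for RNF26 to UBE2J1, RNF26 to USP15 and the summed adaptors to USP15; points are libraries and bars are means. RNF26 passes both enzymes in all 6 RNF26 libraries, most in HCT116, whereas the adaptor ratio separates the lines (4.20 to 5.16 in HCT116 and 7.52 to 9.49 in HCT15) and not the arms.

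The makeup of the adaptor mRNA pool differed between the lines. SQSTM1 made up 69.8 ± 0.501% of the summed adaptor TPM in HCT116 controls and 55.7 ± 2.90% in HCT15 controls, and TAX1BP1 20.5 ± 0.364% and 35.6 ± 2.60%. EPS15 took 5.90% and 5.70%, and TOLLIP 3.86% and 3.03%. In HCT15 the SQSTM1 share was 58.2, 56.3 and 52.5% in controls and 49.7, 50.9 and 51.3% with RNF26, and the TAX1BP1 share was 33.5, 34.7 and 38.5% in controls and 42.4, 41.1 and 40.5% with RNF26. Neither set overlapped, and in both the control nearest to the RNF26 libraries was replicate 3. In HCT116 the SQSTM1 share with RNF26, 66.2, 70.4 and 67.1%, overlapped that of the controls. Shares of a sum are bound to each other, and no test was run on them. SQSTM1 and TAX1BP1 also differ in GC content (60.9 and 40.4%). With the correction for GC content and length neither was called in HCT15, and the shares were not recomputed with it.

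The genes with the most alike pattern over the 12 libraries were sought among genes with a mean of 5 TPM or more, by the root mean square difference of mean-centred log2(TPM + 1). For RNF26 no gene came close: the nearest of 9587, POMT2, a protein O-mannosyltransferase, differed by 1.15, against 1.54 for RNF26 from its own mean. POMT2 stood at 9.57 TPM in HCT116 controls, 31.3 TPM with RNF26, 14.9 TPM in HCT15 controls and 7.22 TPM with RNF26, so that its 2 HCT15 means stood in the opposite order. RBM33-DT (1.22), RN7SL3 (1.24), RN7SK (1.28) and ENSG00000260035 (1.30) came next. For VIM the nearest of 9588 genes were STIM2 (0.173), LTV1 (0.182), IMPA1 (0.185), KLHL2 (0.190) and HSBP1 (0.193), each at a higher level in HCT116, for example STIM2 at 15.2 TPM in HCT116 controls and 6.73 TPM in HCT15 controls.

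Around these genes, 6 lists of related genes gave 0 calls in HCT116. RNF26 was the 1 gene called there (0.00642% of the genes tested) and is in none of the lists. The count of 0 therefore tells nothing particular to a list. In HCT15, where 31.2% of all genes were called lower and 5.39% higher, falls prevailed in 5 of the 6 lists as deposited, as among all genes. Among 14 other endosomal ubiquitin adaptors 11 fell and 1 rose, with a median log2 difference of -0.66. The clathrin adaptors EPN1, from 14.9 ± 0.666 to 6.73 ± 0.800 TPM, and EPN2, from 17.2 ± 1.32 to 9.20 ± 0.857 TPM, fell by 1.04 and 0.83 on the log2 scale. TOM1, which binds TOLLIP on endosomes, fell by 0.80, and its relative TOM1L2 by 0.74. TOM1L1, named after its value was seen, was the 1 that rose, by 0.19 (adjusted p = 0.0255). With median-ratio scaling 8 fell and 2 rose, and EPN1, EPN2, TOM1 and TOM1L2 were called lower in all 24 settings.

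Of 14 selective autophagy receptors 2 rose and 1 fell, with a median of -0.02. The ER-phagy receptors CCPG1, from 22.3 ± 2.53 to 41.7 ± 3.72 TPM, and RTN3, from 106.0 ± 4.01 to 139.0 ± 3.58 TPM, rose by 0.87 and 0.39 and kept their calls in all 24 settings. TEX264, another ER-phagy receptor, fell by 0.51, a call lost with median-ratio scaling and quantile normalization. OPTN was at 55.5 ± 4.76 and 66.9 ± 4.56 TPM and was not called (0.27, adjusted p = 0.0704), but was called higher in 7 of 24 settings, among them the omission of HCT116 control replicate 2 or 3 or HCT15 control replicate 3 (adjusted p 0.0343 to 0.0478). With median-ratio scaling 5 of the receptors rose and 0 fell.

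Of 28 genes of late endosome positioning and ER contact 15 fell and 1 rose, with a median of -0.26. PLEKHM2, which links lysosomes to kinesin, fell by 0.85, KXD1, a subunit of the BORC complex, by 0.68, the dynein heavy chain DYNC1H1 by 0.75 and the dynactin subunit DCTN1 by 0.63. Genes for outward and for inward transport were thus both among those that fell. BLOC1S1, named after its value was seen, rose by 0.30 (adjusted p = 0.0255). With median-ratio scaling 9 fell and 4 rose.

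Of 22 genes for ER-membrane ligases and their E2 enzymes 8 fell and 0 rose, with a median of -0.09. The share that fell was near the 31.2% of all genes called lower, and the median lay above that of all genes, -0.17. SYVN1, the ligase of ER-associated degradation, fell by 0.74 and TMEM129 by 0.70, whereas RNF139, which fell by 0.33, and the E2 enzyme UBE2D3, which fell by 0.32, were not called with median-ratio scaling or quantile normalization. UBE2D3 was also not called without HCT15 control replicate 1 or HCT15 RNF26 replicate 1 or 3 (adjusted p 0.0517 to 0.0581), and without RNF26 replicate 1 or 3 the list held 3 or 4 calls. With median-ratio scaling 2 of these genes fell and 4 rose, and the median was 0.11.

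Of 15 deubiquitinases of endosomes and the ER, with the relatives of USP15, 8 fell and 1 rose, with a median of -0.35. USP4, the closest relative of USP15, fell from 25.7 ± 1.92 to 16.3 ± 1.26 TPM (0.63 lower, log2 difference -0.63, adjusted p = 0.000833), while USP15 itself had an interval from -0.20 to 0.20. STAMBPL1 fell by 0.66, USP19 by 0.77 and USP7 by 0.67. YOD1, named after its value was seen, rose by 0.35. With median-ratio scaling 5 fell and 3 rose, and without HCT15 control replicate 1 the list held 5 calls.

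Of 21 intermediate filament and linker genes 14 passed the filter, and 8 fell and 1 rose, with a median of -0.37. Of the 14, KRT20, NES, SYNM and DES passed through HCT116 alone. With HCT15 fitted alone 10 were tested, and 7 fell and 1 rose, with a median of -0.58. The lamins LMNB2, LMNA and LMNB1, which line the nucleus, fell by 1.12, 0.81 and 0.69, and PLEC, the filament linker plectin, by 1.17, while VIM was not called. KRT7, named after its value was seen, rose by 0.64. With median-ratio scaling 5 fell and 1 rose.

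**Figure D5:**
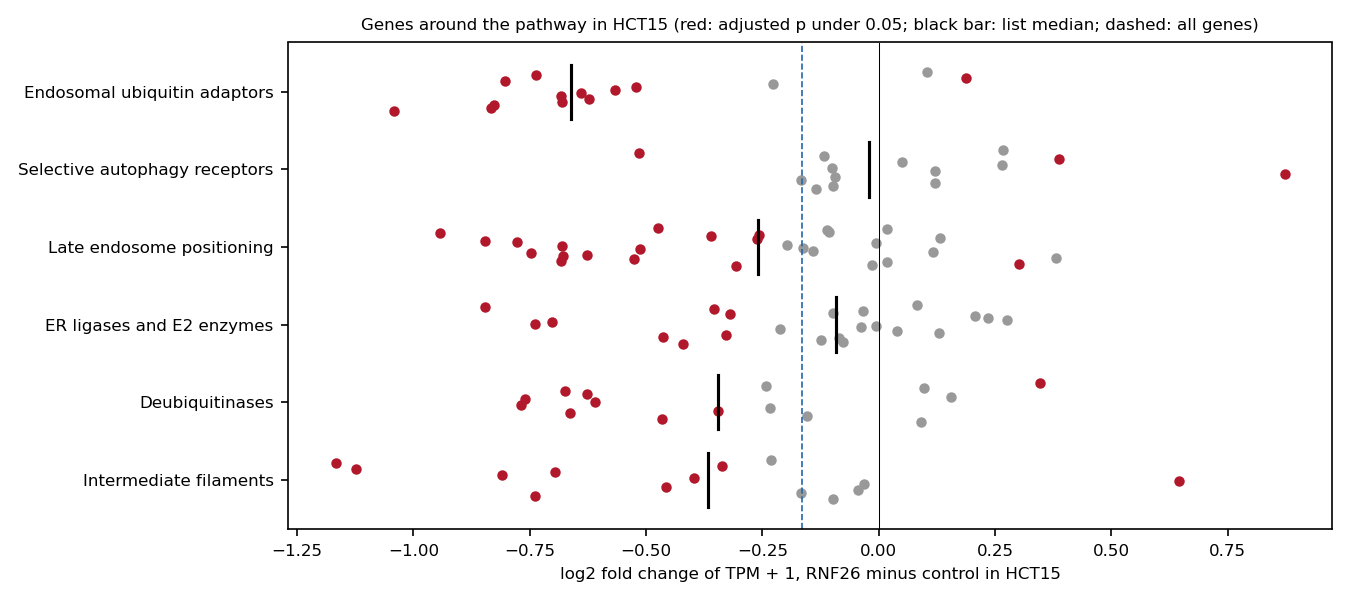
Log2 differences between RNF26 and control libraries of HCT15 for the tested genes of the 6 lists; each point is a gene, red marks an adjusted p under 0.05, black bars are list medians and the dashed line is the median of all tested genes (-0.17). The endosomal ubiquitin adaptors have the lowest median (-0.66) and the selective autophagy receptors the highest (-0.02).

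Between the control lines 69.5% of all tested genes were called, 43.6% higher in HCT15 and 26.0% lower. On the log2(TPM + 1) scale some list genes named below differed by more than any of the 8 genes (at most 1.36, TAX1BP1). Others differed by less. That scale understates the difference of VIM, whose mean TPM in HCT15 controls was 0.235 times that in HCT116 controls. OPTN stood at 8.61 ± 1.44 TPM in HCT116 and 55.5 ± 4.76 TPM in HCT15, a log2 difference of 2.56. TOM1L2 was 2.11 higher in HCT15, USP25 2.30, STAMBPL1 1.87, OSBPL1A 1.48, TMEM129 1.33, KRT18 1.28, DYNC1I2 0.95, TOM1L1 0.93 and BFAR 0.79. The mitophagy receptor BNIP3 stood at 54.5 ± 1.70 TPM in HCT116 and 0.960 ± 0.226 TPM in HCT15 (log2 difference -4.83), and the filament gene DES at 2.58 ± 0.294 and 0.0833 ± 0.0723 TPM (-1.73). BNIP3 and DES passed the filter on low values through HCT116, so a lower level in HCT15 was favoured by it.

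The counts of genes called higher and lower in HCT15 controls were 9 and 1 of 14 adaptors, 10 and 2 of 14 autophagy receptors, 17 and 4 of 28 positioning genes, 10 and 4 of 22 ligase and E2 genes, and 9 and 2 of 15 deubiquitinases. With median-ratio scaling the positioning genes split into 15 higher and 8 lower, the ligase and E2 genes into 6 and 5, and the deubiquitinases into 9 and 4, and with quantile normalization the adaptors split into 5 and 3, the positioning genes into 15 and 7, the ligase and E2 genes into 7 and 5, and the deubiquitinases into 9 and 4. The share of ligase and E2 genes higher in HCT15 was near that of all genes, and nothing particular to a list is read from these counts. Of the 14 tested filament genes 4, KRT20, NES, SYNM and DES, passed the filter through HCT116 alone, and all 4 were called lower in HCT15, so no split is given for that list.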

How the data were processed

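Poly(A) RNA from 12 samples of HCT116 and HCT15 was sequenced as paired ends from a stranded library kit, per the labels' protocols. The authors deposited 1 table of TPM with 63036 identifiers. The submitters' processing notes name fastp, HISAT2, StringTie, RSEM and GRCh38, while the sources used here give no versions, roles, annotation release or use of strand. Groups and replicate numbers came from sample titles. TPM keeps no depth, so no count model or counting interval was used. All 8 genes passed the filter of TPM 1 or more in at least 3 libraries.

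The 15584 genes that passed entered 1 limma fit (version 3.58.1, R 4.3.3) of log2(TPM + 1) with group means and a trend of variance on level; residual degrees of freedom were 8 and prior ones 3.09. All tests are two-sided, and an adjusted p (Benjamini-Hochberg) under 0.05 is a call. Ratios were tested by exact permutation (scipy 1.17.1). The fit was also run on simulated data whose changes were balanced in direction, unlike the calls in HCT15. That run therefore does not check the HCT15 calls. The 8 genes, the 6 lists and the tests were chosen with earlier results of these data known. Of each list up to 4 genes with the smallest p in HCT15 were named, up to 2 between control lines and up to 3 called in HCT116 or in the difference of effects. For RNF26 and VIM the 5 most alike genes were named. Sequences came from the GENCODE annotation with its transcripts and from RefSeq.

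Alternatives were a pseudocount of 0.1 or 5, no filter or a filter of 5 TPM, median-ratio scaling over 7524 genes, quantile normalization, omission of mitochondrial and ribosomal protein genes, correction for GC content and length (spline with 5 degrees of freedom, 95.3% of tested genes), each line alone, eBayes without trend or robust, a replicate block, and each library left out.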

Additional observations from a re-analysis of the deposited data

Results flagged for a closer look

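The genes below are those named by the rules above whose RNF26 effect differed between the lines in a test of the difference itself. The test was the limma interaction contrast (HCT15 minus HCT116, log2 scale, adjusted p under 0.05), in which 20.5% of all tested genes were called. Further list genes were called but not named. As deposited, 6 of 14 adaptors, 11 of 28 positioning genes and 3 of 22 ligase and E2 genes were called, all lower. So were 6 of 15 deubiquitinases and 5 of 14 filament genes. Of 14 autophagy receptors 2 were called higher and 1 lower. With median-ratio scaling 2 adaptors were called higher and 5 lower, 2 and 6 positioning genes, and 2 and 2 deubiquitinases. The counts were then 0 and 5 for filament genes, 3 and 0 for receptors, and 0 and 1 for ligase and E2 genes. Of all tested genes 5.99% were then called higher and 7.35% lower. Of the 8 genes, those with a called difference were RNF26 (-3.07), whose rise was larger in HCT116, and TOLLIP (-0.53).

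Among endosomal ubiquitin adaptors the differences were -0.78 for EPN2, -0.87 for EPN1, -0.70 for TOM1L2 and -0.78 for TOM1. Among autophagy receptors they were 0.37 for RTN3, 0.86 for CCPG1 and -0.53 for TEX264. Among positioning genes they were -0.85 for PLEKHM2, -0.55 for KXD1, -0.73 for DYNC1H1, -0.59 for DCTN1 and -0.92 for PLEKHM1, which couples late endosomes to fusion factors. Among ER ligases and E2 enzymes they were -0.67 for SYVN1, -0.72 for TMEM129 and -0.48 for UBE2J2, the relative of UBE2J1. Among deubiquitinases they were -0.78 for STAMBPL1, -0.70 for USP19, -0.58 for USP4, -0.71 for USP7 and -0.83 for USP25. Among filament genes they were -1.30 for LMNB2, -1.09 for PLEC, -0.79 for LMNA and -0.68 for LMNB1. RTN3 and CCPG1 were the 2 genes named here with a value above 0. Of all tested genes 18.7% were called lower in this contrast and 1.8% higher, so lower values prevailed there too.

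The TEX264 call was lost in 16 of 23 settings, among them the omission of any single library other than HCT116 RNF26 replicate 3 and replicate 3 of either HCT15 group (adjusted p 0.0503 to 0.103). The UBE2J2 call was lost in 12 of 23, among them the omission of HCT116 control replicate 2 or 3, HCT116 RNF26 replicate 1 or 2, HCT15 control replicate 1 or 3, or HCT15 RNF26 replicate 1 (adjusted p 0.0513 to 0.0820). The USP25 call was lost in 10 of 23, among them the omission of HCT116 control replicate 1 or 3, HCT116 RNF26 replicate 1 or 2, or HCT15 RNF26 replicate 1 or 3 (adjusted p 0.0602 to 0.0678). The USP7 call was lost in 7 of 23, among them the omission of HCT116 control replicate 3, HCT116 RNF26 replicate 1 or 2, or HCT15 RNF26 replicate 1 (adjusted p 0.0505 to 0.0538). Calls of SYVN1, USP4, USP7 and USP25 were lost with median-ratio scaling and quantile normalization, those of USP7 and USP25 also with no filter on low values and that of USP25 without mitochondrial and ribosomal protein genes, that of KXD1 with median-ratio scaling and that of TMEM129 with quantile normalization. The other genes named here, apart from TOLLIP, were called in all 23 settings. Ribosomal protein genes took a larger share of TPM in the HCT15 RNF26 libraries than in the HCT15 controls, and their part in these differences was not tested.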

How the results depend on the processing

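The count of the 8 genes called was 1 in HCT116 under all 24 alternatives, the overexpressed RNF26 each time. The count was 2 to 4 in HCT15, where RNF26 was again called each time, and 6 to 7 between the control lines. Without each library in turn it was 2 to 3 in HCT15 and 7 between the lines. The count for the difference between lines, 2, was 1 with no filter, with median-ratio scaling, with quantile normalization, without mitochondrial and ribosomal protein genes, with the GC and length correction and with the replicate block, and 1 to 2 without each library in turn, since TOLLIP was lost. SQSTM1 in HCT15 turned to 0.0048 with median-ratio scaling (adjusted p = 0.978). The cause was not tested. VIM gave no value with the filter of 5 TPM or in HCT15 alone. The median log2 difference of all genes in HCT15 was -0.17 as deposited, -0.07 without mitochondrial and ribosomal protein genes, and -0.0022 with quantile normalization.

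Same-numbered libraries did not deviate together (correlation over genes of -0.04 to 0.15 in 6 pairs), and not every library correlated best with its own number. With the replicate block, 2 calls among the 8 genes were lost: SQSTM1 in HCT15 (adjusted p = 0.0698) and the TOLLIP difference (adjusted p = 0.0703). The 2 ratios of RNF26 kept their direction in each alternative run. The log2 difference of the adaptor ratio lay on both sides of 0 in HCT116 without each library in turn (-0.0747 to 0.0753) and below 0 in HCT15 (-0.186 to -0.0175). The GC and length correction, under which USP15 was called lower in HCT15, was not run on any ratio. Depth is unknown, so the precision of low levels, VIM above all, cannot be given from counting.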
